A study of Mus musculus with 48 samples.

Results

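Interferon-stimulated genes were followed in the livers of male wild-type mice given lipopolysaccharide (LPS), the endotoxin of Gram-negative bacteria, for 7 consecutive days, or kept as negative controls (NC). The 44 genes were taken by symbol from a table of RNA-seq read counts of 29331 genes and all 44 passed the filter on low counts in every fit. LPS livers were collected on day 7 at 6 times of day, ZT1, ZT5, ZT9, ZT13, ZT17 and ZT21 (ZT, zeitgeber time, counted in hours), and at ZT21 also on 4 other days. Of these, days 3 and 5 fall within the administration and days 9 and 11 after its end. NC livers were collected on day 7 at the same 6 times of day, and the other days have no NC livers among the libraries analysed here. Each of the 16 groups holds 3 libraries, 48 in all, described as biological replicates. No source used here gives the LPS dose, the age of the mice or what the NC mice received.

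Type I interferons bind the receptor IFNAR and type III interferons bind IFNLR1 with IL10RB. Both lead through the kinases JAK1 and TYK2 to a complex holding STAT2 and IRF9 that binds interferon-stimulated response elements (ISRE). Interferon-gamma binds IFNGR and acts through gamma-activated sites (GAS). In the liver, LPS is sensed by TLR4 on Kupffer cells, the resident macrophages, on endothelium and on hepatocytes, and TLR4 signalling through TRIF can induce interferon-beta. The genes induced fall into regulators that amplify the response, sensors of viral nucleic acid, the 2′-5′ oligoadenylate synthetases (OAS), the IFIT proteins that bind viral RNA, the ubiquitin-like ISG15 system, other antiviral effectors, the PARP proteins, and the GTPases of the GBP and IRG families, which act at membranes around intracellular pathogens and are strongly induced by interferon-gamma.

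The stretches upstream of the starts of 5 members are shown because they show matches to the motifs described above, and because these genes recur in the results below. They are from RefSeq, build GRCm38.p6, and each gives the 250 bases before the start on the gene's own strand. Capitals mark matches on either strand to the ISRE core, GAAA and GAAA with any 2 bases between them, or to the GAS motif TTCNNNGAA. Isg15, at chr4:156200819-156201068 on the minus strand, has 3 overlapping ISRE matches. Igtp, at chr11:58199306-58199555 on the plus strand, has 1 GAS match and 1 ISRE match, and Gbp2, at chr3:142620413-142620662 on the plus strand, has 1 ISRE match. Irf1, at chr11:53769764-53770013 on the plus strand, has 1 GAS match, and Stat2, at chr10:128270248-128270497 on the plus strand, has 1 ISRE match. Another Irf1 start, with a window at chr11:53770223-53770522, had 0 matches to either motif and is not shown.
Isg15: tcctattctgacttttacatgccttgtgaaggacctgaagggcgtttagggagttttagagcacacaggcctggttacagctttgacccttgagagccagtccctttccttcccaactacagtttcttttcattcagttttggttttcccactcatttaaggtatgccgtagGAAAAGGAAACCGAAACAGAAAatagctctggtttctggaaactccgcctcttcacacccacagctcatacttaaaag
Igtp: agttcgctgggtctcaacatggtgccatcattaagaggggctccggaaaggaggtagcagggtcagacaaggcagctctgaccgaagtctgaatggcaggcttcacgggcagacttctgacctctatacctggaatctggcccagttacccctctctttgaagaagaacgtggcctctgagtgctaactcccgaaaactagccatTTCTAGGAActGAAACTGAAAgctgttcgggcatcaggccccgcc
Gbp2: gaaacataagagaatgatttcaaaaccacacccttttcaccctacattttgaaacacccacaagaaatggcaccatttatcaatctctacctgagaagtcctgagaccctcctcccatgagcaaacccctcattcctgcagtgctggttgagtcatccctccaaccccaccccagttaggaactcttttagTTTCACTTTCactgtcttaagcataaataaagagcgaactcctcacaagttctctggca
Irf1: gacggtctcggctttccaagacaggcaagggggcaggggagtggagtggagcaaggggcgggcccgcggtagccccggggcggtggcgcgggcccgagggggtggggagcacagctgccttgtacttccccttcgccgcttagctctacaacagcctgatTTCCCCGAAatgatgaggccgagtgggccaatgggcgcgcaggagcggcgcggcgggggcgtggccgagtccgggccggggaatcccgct
Stat2: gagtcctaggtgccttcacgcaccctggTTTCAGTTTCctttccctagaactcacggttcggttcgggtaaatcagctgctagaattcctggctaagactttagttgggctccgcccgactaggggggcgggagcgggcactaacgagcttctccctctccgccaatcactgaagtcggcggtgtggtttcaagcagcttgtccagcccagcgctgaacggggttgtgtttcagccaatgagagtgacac

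Promoter windows of 300 bases, 250 before to 50 after the start, were at hand for 33 of the 44 members. A gene with several windows was counted by the window with most matches. An ISRE core was present in 21 of the 33 (63.6%), against 3.99% of the 27025 genes with a window. It was found in all 3 GBP genes with a window, 4 of 5 IRG genes, 3 of 4 IFIT genes, 3 of 3 sensors and 3 of 5 OAS genes. The GAS motif was present in 10 of 33 members (30.3%), against 9.55% of all genes, among them 3 of 5 IRG genes. The E-box CACGTG, which CLOCK and BMAL1 bind, was in 0 of 33 of these windows, against 8.09% of all genes, which says only that these letters are not in these windows.

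Libraries held 28.2 to 45.3 M counts, with a median of 32.9 M. Clock genes did not always follow the labelled time. Each library was set beside the NC group means of 19 clock genes, with an NC library left out of the mean of its own group. The nearest NC time was the labelled one in 12 of 18 LPS libraries of day 7. It was the labelled one in 4 of 12 LPS libraries of the other days and in 16 of 18 NC libraries. Among day-7 libraries nearest to another time, the root mean square log2 difference was at times almost as small for the labelled time. It was 1.051 against 1.067 for replicate 2 of LPS ZT1 and 1.126 against 1.13 for replicate 1 of NC ZT9. For replicate 1 of LPS ZT21 it was 1.096 against 1.747. The 3 libraries of day 3 lay nearest to NC ZT5, ZT5 and ZT9, and those of day 5 to NC ZT1, ZT1 and ZT5. At ZT21 of day 7, LPS replicates 1 and 3 lay nearest to NC ZT17 and replicate 2 to NC ZT21. Per2, a clock repressor, averaged 17.6 CPM on day 3, against 110 CPM in NC livers at the same labelled ZT21 and 11.5 CPM in NC livers at ZT5. CPM is a gene's count per M counts of the library, scaled across all 48 libraries by TMM. Replicate 2 of LPS ZT1 stood apart in its cell markers, with 153 CPM summed over 12 neutrophil genes and 858 CPM over 16 Kupffer and macrophage genes, against highest sums of 8.92 CPM and 466 CPM in any NC library. This library was the lowest of its 3 in 34 of the 44 members. That is not particular to it: replicate 3 of LPS day 3 and replicate 3 of NC ZT17 were each the lowest in 37. Replicate 2 of LPS ZT9 was the highest of its 3 in 41. The members move together within a library, so counts of members below are not counts of independent observations. An earlier look at these data had also set apart replicate 2 of LPS ZT13 and replicates 1 and 3 of LPS ZT21, so that the main counts are also given without these 4 libraries. In whole liver, fewer cells of a type and less RNA per cell cannot be told apart.

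The first question is how the members vary over the day. In LPS livers on day 7, 20 of the 44 members passed the test for a 24 h rhythm, against 16.6% of all genes tested. In NC livers 31 members passed, against 23.5% of all genes. A 24 h cosine was fitted to each arm with edgeR's quasi-likelihood test, at an adjusted p of 0.05. The fitted peaks lay between ZT3 and ZT9 for 16 of the 20 members in LPS livers and 29 of the 31 in NC livers, and the same holds for 24.2% and 30.2% of all genes that passed in LPS and in NC livers. The median peak was ZT 5.06 in LPS livers and ZT 5.62 in NC livers. Members that passed in both arms numbered 19.

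In NC livers the earliest of the 31 peaks was that of Stat2, a part of the ISRE-binding complex, at ZT 0.91, and the latest that of Iigp1, an IRG GTPase, at ZT 8.16. All 6 IRG genes, 3 of 4 GBP genes, 4 of 5 sensors, all 3 members of the ISG15 system and 3 of 4 regulators passed in NC livers, and 2 of 6 OAS genes and 2 of 4 IFIT genes did. In LPS livers 4 of 6 IRG genes, 1 of 4 GBP genes, 3 of 5 sensors, 1 of 3 of the ISG15 system, 2 of 4 regulators, 3 of 6 OAS genes and 0 of 4 IFIT genes passed. The largest amplitudes belonged to Cmpk2, a mitochondrial nucleotide kinase beside Rsad2 on chromosome 12, with 1.15 in LPS livers and 1.204 in NC livers on the log2 scale (adjusted p = 0.000121 in LPS and 3.62e-05 in NC livers). Rsad2, which encodes the antiviral enzyme viperin, followed with 1.07 in LPS livers and 1.03 in NC livers (adjusted p = 0.0102 and 0.0123). Next in NC livers came Gbp6 with 0.98, Oasl1, an OAS-like protein, with 0.93 and Tgtp1, an IRG GTPase, with 0.90. The median amplitude of the members that passed was 0.43 in LPS livers and 0.55 in NC livers, where all genes that passed had medians of 0.35 in each arm.

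**Figure D1:**
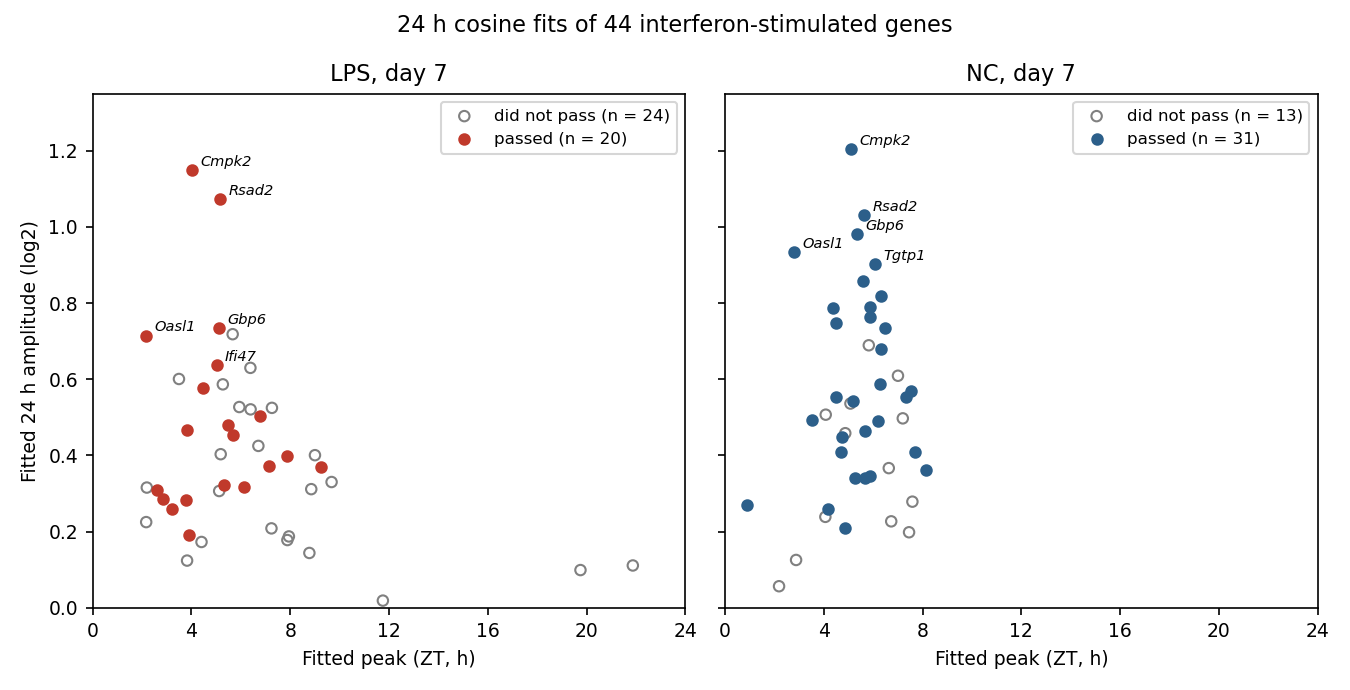
Fitted 24 h amplitude (log2, y axis) against fitted peak time (ZT in hours, x axis) of the 44 genes in LPS livers (left) and NC livers (right) on day 7. Filled points passed the test, 20 in LPS and 31 in NC livers, and open points did not, and Cmpk2 and Rsad2 are highest in both panels.

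Cmpk2 at ZT5 stood at 9.83, 9.18 and 16.8 CPM in LPS livers, against 16.9, 19.0 and 24.6 CPM in NC livers. At ZT17 it stood at 3.03, 2.61 and 3.84 CPM in LPS livers, against 2.95, 5.36 and 2.24 CPM in NC livers. All 3 libraries at ZT5 therefore lay above all 3 at ZT17 in each arm, and the arms overlapped at ZT17 but not at ZT5. Isg15, a ubiquitin-like protein attached to other proteins, stood at 14.2, 11.2 and 18.1 CPM at ZT5 in LPS livers, against 19.4, 28.2 and 27.7 CPM in NC livers. At ZT21 it stood at 3.63, 5.64 and 5.34 CPM in LPS livers, against 7.90, 4.51 and 4.63 CPM in NC livers. In the plot of levels by time of day, the NC lines of Cmpk2, Isg15 and Igtp each have their highest point at ZT5.

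**Figure D2:**
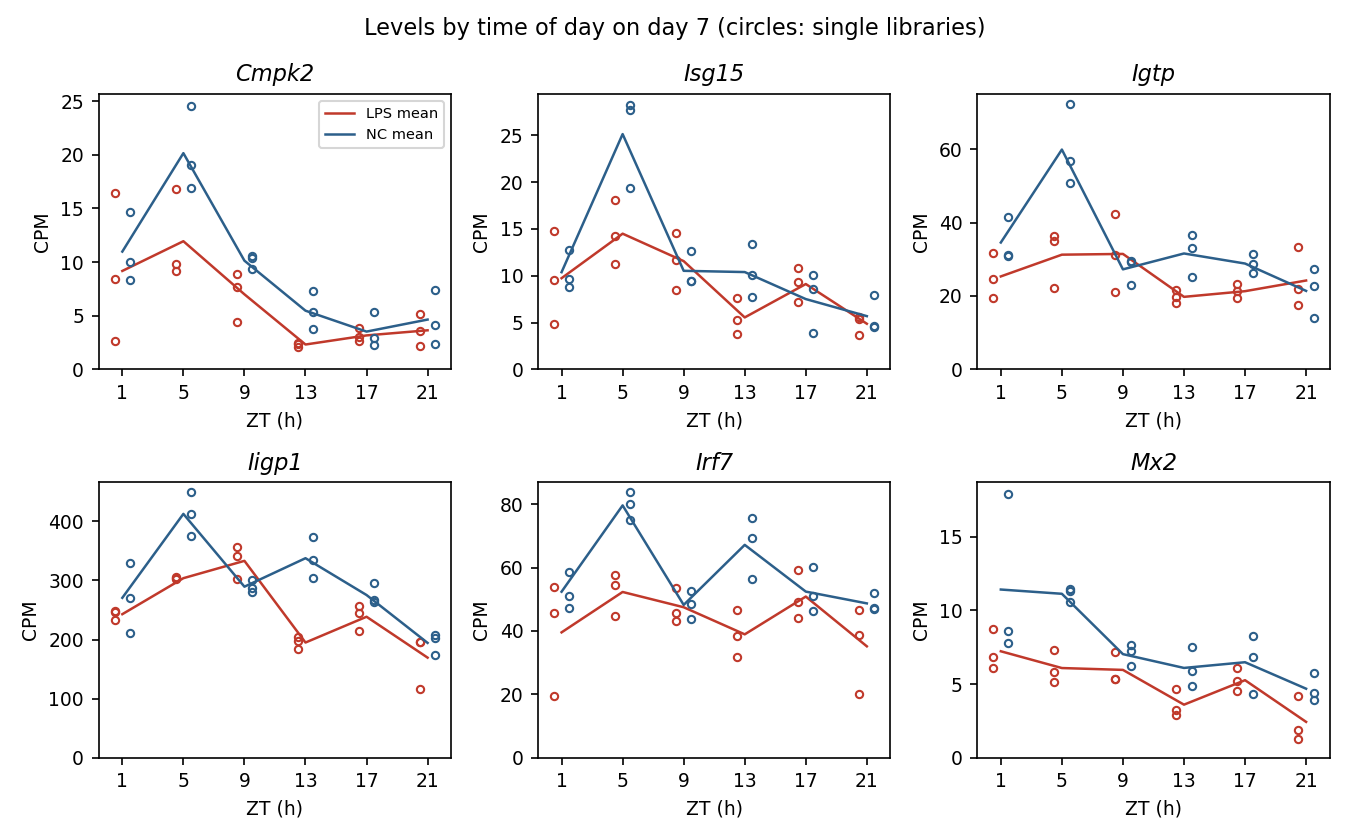
CPM (y axis) by time of day (ZT in hours, x axis) on day 7 for 6 members, with circles for single libraries and lines for group means of 3, in red for LPS and blue for NC livers. At ZT5 all 3 LPS circles lie below all 3 NC circles for every gene shown.

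The difference in rhythm between the arms was tested directly. The fitted amplitude was smaller in LPS than in NC livers for 36 of 44 members, as it was for 56.9% of all genes, but no member passed the test of the difference, which 0.158% of all genes did. At an unadjusted p under 0.05 there were 5 members in edgeR, and limma-voom called 0. The smallest p-values belonged to Irf1, an interferon-gamma-inducible transcription factor, at an adjusted p of 0.15, and to Trim30a, a TRIM family protein, at an adjusted p of 0.17.

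The second question is the level in LPS livers over the whole of day 7. Averaged over the 6 times of day, 13 of 44 members were lower in LPS than in NC livers and 0 were higher, where 3.81% of all genes were lower and 5.53% higher (9.34% in either direction). The median log2 difference of the 44 was -0.23, where that of all genes was 0.01, and 39 of the 44 were below 0, as were 47.5% of all genes. The count was 8 without the 4 libraries set apart, and 8 without replicate 2 of LPS ZT5. It was 1, Eif2ak2, without the 8 day-7 libraries, 6 LPS and 2 NC, whose clock genes lay nearest to another time, an alternative chosen after seeing the data. Neutrophil genes moved the other way in this comparison: 7 of the 10 tested were higher in LPS livers, and their summed level ran from 3.18 to 153 CPM in LPS livers against 1.87 to 8.92 CPM in NC livers. Kupffer and macrophage genes rose in 2 of 16 (Lyz2 and Marco) and their sum ran from 213 to 858 CPM in LPS and from 203 to 466 CPM in NC livers. Endothelial genes rose in 5 of 11, with sums of 218 to 407 CPM in LPS and 173 to 313 CPM in NC livers. Lymphocyte genes rose in 4 of 17, with sums of 18.6 to 153 CPM in LPS and 9.01 to 32.6 CPM in NC livers. None of these markers was at 0, and their part in the result was not tested.

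Among the regulators, Irf7, the factor that amplifies type I interferon production, had a lowest value of 19.4, a median of 45.6 and a highest value of 59.2 CPM over the 18 LPS libraries, against 43.9, 52.3 and 83.8 CPM over the 18 NC libraries. In 15 of 18 LPS libraries it lay below the NC mean of its own time, and its log2 difference was -0.39 ± 0.10 (SE, adjusted p = 0.018). Irf9, the DNA-binding part of the ISRE-binding complex, averaged 33.9 ± 7.4 CPM in LPS and 40.7 ± 8.6 CPM in NC livers (SD, n = 18 each), a difference of -0.26 (adjusted p = 0.012). Stat2 ran from 82.0 through a median of 102 to 134 CPM in LPS livers, against 81.5, 111 and 140 CPM in NC livers, and its difference of -0.12 did not pass (adjusted p = 0.13). Irf1 ran from 15.8 through 25.3 to 37.2 CPM in LPS livers, against 15.6, 23.3 and 41.0 CPM in NC livers, with a difference of 0.01 (adjusted p = 0.96). The lowest Irf7 value of all was that of replicate 2 of LPS ZT1.

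Of the 5 sensors, Eif2ak2, the double-stranded RNA-dependent kinase PKR, passed the test. It averaged 8.75 ± 1.87 CPM in LPS and 11.1 ± 2.4 CPM in NC livers (SD, n = 18 each), lower by its log2 difference of -0.33 ± 0.07 (SE, adjusted p = 0.0031), in 15 of 18 LPS libraries. Its call was kept in 43 of 43 alternatives. Ddx58 (RIG-I), Ifih1 (MDA5), Dhx58 (LGP2) and Zbp1, a sensor of Z-form nucleic acid, had differences between -0.25 and -0.04 that did not pass.

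None of the 6 OAS genes and 4 IFIT genes passed in this average, with 1 at an unadjusted p under 0.05 in each family. Oasl1 ran from 5.07 through 15.1 to 36.7 CPM in LPS livers, against 5.35, 15.6 and 43.6 CPM in NC livers (log2 difference -0.18, adjusted p = 0.48). Ifit1 ran from 1.28 through 6.20 to 17.01 CPM in LPS livers, against 3.52, 9.14 and 33.7 CPM in NC livers (log2 difference -0.57, adjusted p = 0.10). The lowest Ifit1 value was again replicate 2 of LPS ZT1, and the ranges of the arms overlap widely for both genes. In the ISG15 system, Isg15 ran from 3.63 through 8.88 to 18.1 CPM in LPS livers, against 3.92, 9.55 and 28.2 CPM in NC livers (adjusted p = 0.24). Usp18, the protease that removes ISG15 and restrains IFNAR signalling, ran from 2.65 through 8.47 to 13.9 CPM in LPS livers, against 4.09, 10.4 and 27.8 CPM in NC livers (adjusted p = 0.089).

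Of the 10 other effectors, 3 were lower and all 10 had a difference below 0. Mx2, a dynamin-like GTPase against viruses, ran from 1.26 through 5.28 to 8.76 CPM in LPS livers, against 3.89, 7.39 and 17.9 CPM in NC livers. It lay below the NC mean of its time in 17 of 18 LPS libraries, with a difference of -0.63 ± 0.13 (SE, adjusted p = 0.0040). Rtp4, a receptor chaperone with antiviral activity, fell by 0.51 (adjusted p = 0.0044), lower in 16 of 18 LPS libraries, and Xaf1, a pro-apoptotic protein, fell by 0.31 (adjusted p = 0.030). Parp9, which acts with the ubiquitin ligase DTX3L, fell by 0.17 (adjusted p = 0.031), and Parp14 at -0.08 did not pass. Exons of Parp9 and Dtx3l overlap by annotation on opposite strands.

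The IRG GTPases were the family with most calls in the main fit: 5 of 6 were lower in LPS livers. Without the 4 libraries set apart, only Irgm2 and Iigp1 of them were called. Igtp ran from 17.5 through 21.98 to 42.2 CPM in LPS livers, against 13.9, 30.3 and 72.2 CPM in NC livers. Its difference was -0.35 ± 0.10 (SE, adjusted p = 0.036). Igtp and Irgm2 share 162 exonic bases on the same strand, so that reads there cannot be told apart by position. Iigp1 averaged 247 ± 62 CPM in LPS and 296 ± 74 CPM in NC livers (SD, n = 18 each), a difference of -0.26 (adjusted p = 0.0085). Irgm1, Irgm2 and Ifi47 differed by -0.29, -0.28 and -0.30 (adjusted p = 0.027, 0.031 and 0.035), and Tgtp1, at 0.18, did not pass. The calls of Igtp and Ifi47 were kept in 31 and 27 of 43 alternatives. Those of Irgm1, Irgm2 and Iigp1 were kept in 41, 42 and 42. Of the 4 GBP genes, Gbp6 was lower by a log2 difference of -0.62 ± 0.19 (adjusted p = 0.044), a call kept in 18 of 43 alternatives. Gbp2 ran from 2.26 through 3.08 to 7.57 CPM in LPS livers, against 1.76, 3.66 and 8.07 CPM in NC livers, with a difference of 0.04 (adjusted p = 0.90).

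**Figure D3:**
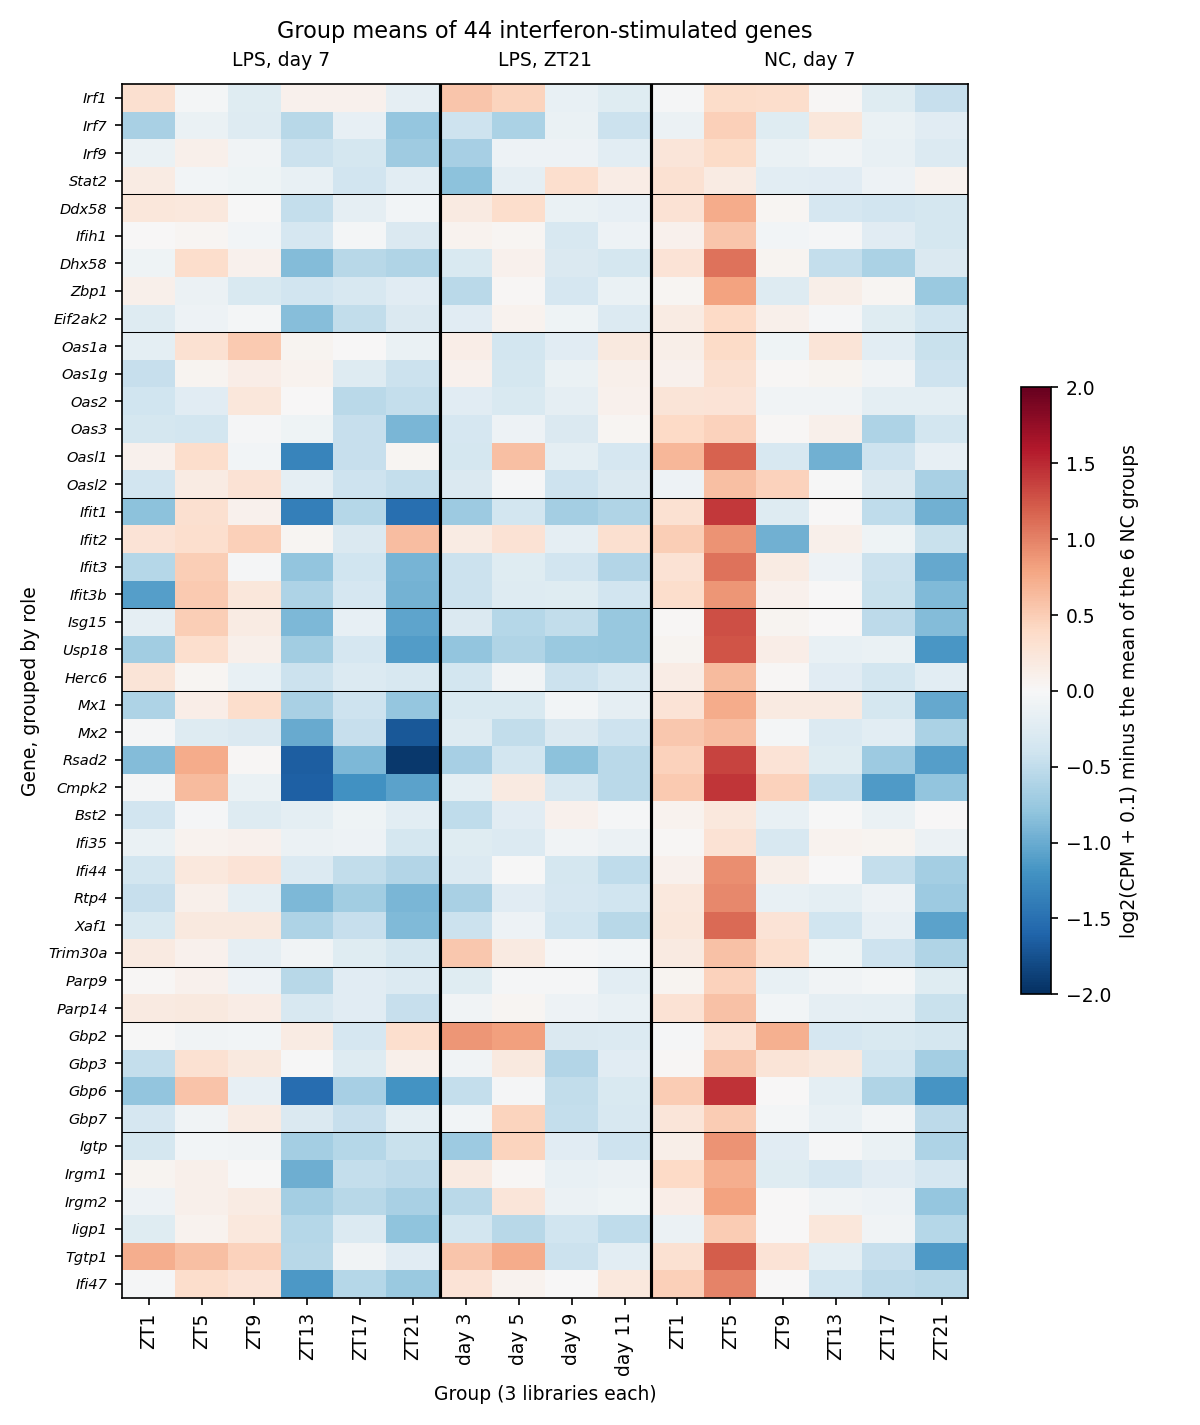
Group means of log2(CPM + 0.1) of the 44 genes (rows, grouped by role), minus the mean of the 6 NC groups, in 6 LPS groups of day 7, 4 LPS groups of other days at ZT21 and 6 NC groups (columns, 3 libraries each). All 44 genes are above 0 in the NC ZT5 column, and most are below 0 in the LPS ZT13, ZT17 and ZT21 columns of day 7 and in the NC ZT17 and ZT21 columns.

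The third question is at which times of day the arms differ. At ZT5 all 44 members were below 0, where 50.2% of all genes were, with a median log2 difference of -0.59 against 0.00 for all genes. In 33 of the 44 members all 3 LPS libraries lay below all 3 NC libraries, as they did for 10.1% of all genes. No member passed the adjusted threshold in edgeR, as 0.0121% of all genes did, with 23 members at an unadjusted p under 0.05. DESeq2 called 1, Xaf1, and a fit of the 6 libraries of ZT5 alone called 11, all lower. Xaf1 stood at 7.38, 6.28 and 8.26 CPM in LPS livers, against 13.02, 14.1 and 14.8 CPM in NC livers, with no overlap and a difference of -0.94 (adjusted p = 0.15). Igtp stood at 36.4, 22.2 and 35.1 CPM in LPS livers, against 50.7, 56.7 and 72.2 CPM in NC livers, with a difference of -0.94 (adjusted p = 0.29). Irf7 stood at 57.7, 54.4 and 44.9 CPM in LPS livers, against 75.1, 79.9 and 83.8 CPM in NC livers, again with no overlap.

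At ZT13, 3 members were lower and 0 higher, against 1.33% of all genes lower and 1.85% higher (3.18% in all), and the median log2 difference of the 44 was -0.37. Iigp1 stood at 203, 184 and 198 CPM in LPS livers, against 304, 334 and 374 CPM in NC livers, a difference of -0.78 ± 0.15 (SE, adjusted p = 0.0045). Eif2ak2 stood at 5.07, 7.48 and 5.53 CPM in LPS livers, against 9.70, 11.9 and 10.3 CPM in NC livers, a difference of -0.80 ± 0.16 (adjusted p = 0.0078). Parp9 stood at 28.7, 33.5 and 28.1 CPM in LPS livers, against 34.3, 47.8 and 44.6 CPM in NC livers, a difference of -0.47 (adjusted p = 0.030). The arms did not overlap for these 3 genes, nor for 15 further members, 18 in all, where 10.1% of all genes were lower without overlap. The count was 2 without replicate 1 or 3 of LPS ZT13 or without replicate 2 or 3 of NC ZT13. It was 5 without replicate 1 of NC ZT13, 8 in DESeq2 and 0 in a fit of the 6 libraries of ZT13 alone. Without the libraries nearest to another clock time it was 0 too, with 1 LPS library left against 2 NC libraries, so that the lone library is assumed to vary like the other groups. The median was -0.56 without replicate 2 of LPS ZT13, -0.58 without replicate 1 of NC ZT13 and -0.24 without replicate 2 of NC ZT13. Endothelial genes were higher in 8 of 11 at ZT13, with sums of 407, 391.5 and 358 CPM in LPS livers, against 259, 206 and 187 CPM in NC livers. Lymphocyte (T, NK and B cell) genes were higher in 3 of 17, with sums of 27.6, 153 and 39.4 CPM in LPS livers, against 18.1, 9.01 and 11.8 CPM in NC livers. None of these markers was at 0, and their part was not tested.

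At the other times few calls were made. At ZT1 no member passed in edgeR or DESeq2 (0.357% of all genes did in edgeR, 0.314% higher and 0.0423% lower), and the median log2 difference was -0.34. That median was -0.11 without replicate 2 of LPS ZT1 or without replicate 2 of NC ZT1, and -0.54 without replicate 1 of LPS ZT1. Oas2 stood at 6.32, 4.31 and 6.33 CPM in LPS livers, against 7.67, 9.97 and 9.09 CPM in NC livers (difference -0.66, adjusted p = 0.12), and Gbp7 differed by -0.59 (adjusted p = 0.21). At ZT9 none passed in edgeR or DESeq2, where 0.453% of all genes did in edgeR (0.314% higher and 0.139% lower), and the median of the 44 was 0.06. Ifi35, a partner of the adaptor NMI, stood at 29.2, 35.2 and 29.3 CPM in LPS livers, against 22.8, 24.03 and 23.5 CPM in NC livers (difference 0.41, adjusted p = 0.22). Trim30a differed there by -0.54 (adjusted p = 0.27). At ZT17 none passed in edgeR or DESeq2, as 0% of all genes did in edgeR, and Rtp4 stood at 8.44, 8.97 and 8.31 CPM in LPS livers, against 13.3, 14.9 and 11.2 CPM in NC livers (difference -0.62, adjusted p = 0.49), with Stat2 at -0.29 (adjusted p = 0.49). At an unadjusted p under 0.05 there were 11 members at ZT1, 5 at ZT9 and 3 at ZT17. At ZT21, Gbp3 rose, with 4.92, 6.06 and 8.28 CPM in LPS livers, against 4.47, 3.52 and 3.05 CPM in NC livers (difference 0.82, adjusted p = 0.037), against 5.52% of all genes higher and 3.38% lower (8.90% in all), and the call was lost in 7 of 12 alternatives.

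Whether the LPS effect depended on time of day was tested by an interaction. No member passed in edgeR, where 1.70% of all genes did, with 15 members at an unadjusted p under 0.05. DESeq2 called 4, Eif2ak2, Gbp7, Irgm2 and Iigp1, and edgeR called 2, Eif2ak2 and Iigp1, without the 4 libraries set apart. Iigp1 had the smallest p-value (adjusted p = 0.072) and Eif2ak2 the next (adjusted p = 0.12). The difference between ZT5 and ZT9 in the medians above is therefore a description.

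**Figure D4:**
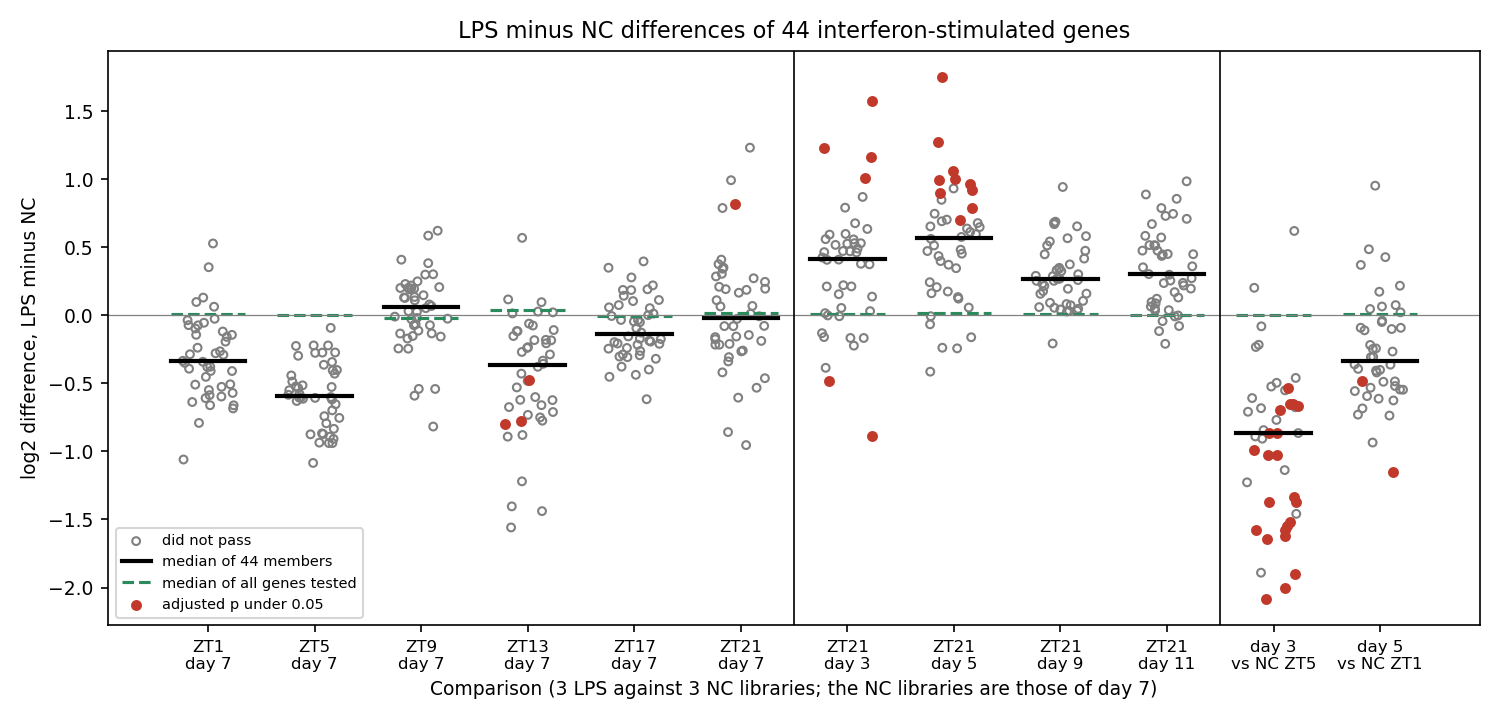
Log2 differences (LPS minus NC, y axis) of the 44 genes in 12 comparisons of 3 LPS with 3 NC libraries (x axis), with filled points for those past an adjusted p of 0.05, a black bar at their median and a green dashed bar at that of all genes. The members sit lower than all genes at ZT5 on day 7 and on day 3 against NC ZT5, and higher on days 3 and 5 against NC ZT21.

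The fourth question is the course over days at ZT21. All 5 comparisons share the 3 NC libraries of day 7. On day 3, 4 members rose and 2 fell, against 10.3% of all genes in each direction (20.5% in all). On day 5, 10 rose and 0 fell, against 5.91% of all genes higher and 5.68% lower (11.6% in all). On day 7, 2 rose in this fit, Gbp3 with a difference of 0.81 (adjusted p = 0.027) and Ifit2 with 1.22 (adjusted p = 0.041), against 5.71% of all genes higher and 3.71% lower (9.42% in all). The Gbp3 call was kept in 8 of 12 alternatives and the Ifit2 call in 4 of 12. No member passed on day 9 or day 11, with 5 at an unadjusted p under 0.05 on each day and 0 in DESeq2. Of all genes, 0.429% passed on day 9 (0.143% higher, 0.286% lower) and 0.261% on day 11 (0.0683% higher, 0.193% lower). The median log2 difference of the 44 was 0.42 on day 3, 0.57 on day 5, -0.03 on day 7, 0.27 on day 9 and 0.30 on day 11. Single libraries moved these medians. On day 3 it was 0.23 without replicate 1 of day 3 and 0.25 without replicate 2 of NC, and on day 5 it was 0.36 without replicate 2 of NC. On day 7 it ran from -0.15, without replicate 3 of day 7, to 0.22, without replicate 1 of NC. On day 9 it was 0.11 without replicate 3 of day 9 and 0.14 without replicate 2 of NC, and on day 11 it was 0.057 without replicate 2 of day 11.

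Among regulators, Irf1 stood at 15.6, 21.5 and 19.1 CPM in NC livers, 37.6, 37.2 and 39.0 CPM on day 3, 41.1, 39.3 and 26.2 CPM on day 5, 24.96, 15.8 and 29.7 CPM on day 7, 18.2, 22.3 and 30.1 CPM on day 9 and 18.7, 26.3 and 20.5 CPM on day 11. It rose by 1.01 ± 0.23 on day 3 and by 0.92 ± 0.23 on day 5 (log2, SE; adjusted p = 0.0066 and 0.020), with no overlap with NC livers on either day. Stat2 stood at 116, 110 and 117 CPM in NC livers, 64.0, 65.2 and 56.8 CPM on day 3, 103, 102 and 84.7 CPM on day 5, 87.9, 114 and 82.0 CPM on day 7, 138, 140 and 137 CPM on day 9 and 134, 115 and 116 CPM on day 11. It fell by 0.89 ± 0.12 on day 3 (adjusted p = 8.85e-05), in the opposite direction to Irf1. Irf7 stood at 52.1, 46.9 and 47.1 CPM in NC livers, 51.0, 51.1 and 29.3 CPM on day 3, 36.4, 38.9 and 34.3 CPM on day 5, 20.1, 46.6 and 38.8 CPM on day 7, 50.7, 50.9 and 54.4 CPM on day 9 and 41.2, 44.4 and 40.7 CPM on day 11, and passed on none of these days in this fit.

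The GTPase families held 6 of the 10 calls of day 5, 3 of 4 GBP genes and 3 of 6 IRG genes. Gbp2 stood at 3.84, 2.65 and 2.00 CPM in NC livers, 6.36, 5.49 and 8.16 CPM on day 3, 8.24, 8.82 and 3.39 CPM on day 5, 4.20, 2.92 and 7.36 CPM on day 7, 2.08, 3.40 and 3.36 CPM on day 9 and 2.69, 2.91 and 3.09 CPM on day 11. It rose by 1.23 on day 3 and by 1.27 on day 5 (adjusted p = 0.026 and 0.035), and the third library of day 5 lay within the NC range. These calls were kept in 8 and 6 of 13 alternatives. Igtp stood at 27.5, 13.9 and 22.7 CPM in NC livers, 20.3, 20.6 and 16.5 CPM on day 3, 50.5, 53.9 and 29.6 CPM on day 5, 17.5, 21.8 and 33.3 CPM on day 7, 24.9, 24.8 and 32.2 CPM on day 9 and 19.8, 29.8 and 22.6 CPM on day 11. It rose by 1.06 on day 5 (adjusted p = 0.027), a call kept in 7 of 13 alternatives. Tgtp1 rose by 1.58 on day 3 and 1.75 on day 5 (adjusted p = 0.042 and 0.041). Its NC libraries stood at 5.25, 1.65 and 2.85 CPM, and each of the 2 calls was kept in 5 of 13 alternatives. Tgtp1 has a close copy, Tgtp2, from which its reads may not be told apart. Irgm2, Gbp7 and Gbp3 rose by 1.00, 1.00 and 0.90 on day 5 (adjusted p = 0.016, 0.0080 and 0.013).

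Of the antiviral genes, Trim30a stood at 4.22, 3.95 and 3.74 CPM in NC livers, 8.37, 10.4 and 7.96 CPM on day 3, 6.60, 7.00 and 6.98 CPM on day 5, 3.76, 5.08 and 5.59 CPM on day 7, 5.65, 6.43 and 5.80 CPM on day 9 and 5.61, 6.92 and 5.19 CPM on day 11. It rose by 1.16 on day 3 and 0.79 on day 5 (adjusted p = 0.00016 and 0.0070). Trim30a and Irgm2 also had the smallest p-values on days 9 and 11, with differences of 0.58 and 0.67 on day 9 (adjusted p = 0.16 and 0.30) and 0.57 and 0.71 on day 11 (adjusted p = 0.24 and 0.35). Xaf1 and Ddx58 rose by 0.96 and 0.70 on day 5 (adjusted p = 0.023 and 0.026), calls kept in 8 and 7 of 13 alternatives. Bst2, or tetherin, which holds budding virus at the cell surface, stood at 159, 152 and 86.2 CPM on day 3, against 193, 181 and 178 CPM in NC livers, and fell by 0.48 (adjusted p = 0.040). That call was kept in 6 of 13 alternatives.

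The other representatives did not pass on any day at ZT21 in the edgeR fit of the ZT21 libraries. Mx2 was called at ZT21 of day 7 among the day-7 libraries by DESeq2 and with a replicate block, and Oasl1 on day 5 in a fit of the 6 libraries compared. Isg15 stood at 7.90, 4.51 and 4.63 CPM in NC livers, 10.3, 9.10 and 5.84 CPM on day 3, 6.68, 6.69 and 6.79 CPM on day 5, 3.63, 5.64 and 5.34 CPM on day 7, 6.56, 5.36 and 10.2 CPM on day 9 and 5.05, 8.30 and 4.89 CPM on day 11. Ifit1 stood at 8.78, 3.58 and 3.52 CPM in NC livers, 8.55, 6.84 and 3.11 CPM on day 3, 6.17, 8.99 and 6.87 CPM on day 5, 1.54, 4.56 and 4.85 CPM on day 7, 4.38, 4.19 and 10.6 CPM on day 9 and 3.62, 14.7 and 4.40 CPM on day 11. Mx2 stood at 4.41, 3.89 and 5.77 CPM in NC livers, 6.86, 6.19 and 5.28 CPM on day 3, 5.01, 5.09 and 5.33 CPM on day 5, 1.26, 4.18 and 1.88 CPM on day 7, 5.08, 6.30 and 6.37 CPM on day 9 and 5.11, 9.69 and 3.19 CPM on day 11. For these 3 genes at least 1 LPS library of day 7, 9 and 11 lay within or below the NC range. Oasl1 stood at 16.8, 11.3 and 17.1 CPM in NC livers, 13.03, 12.1 and 13.7 CPM on day 3, 27.0, 24.8 and 23.9 CPM on day 5, 20.5, 15.8 and 15.0 CPM on day 7, 11.1, 11.5 and 23.7 CPM on day 9 and 10.03, 20.98 and 10.7 CPM on day 11, so that all 3 libraries of day 5 lay above the NC range. Usp18 stood at 5.76, 4.20 and 4.09 CPM in NC livers, 7.32, 7.99 and 3.65 CPM on day 3, 7.67, 6.03 and 7.03 CPM on day 5, 4.04, 4.28 and 6.24 CPM on day 7, 4.83, 5.88 and 8.52 CPM on day 9 and 5.23, 9.07 and 4.89 CPM on day 11, again with day 5 above the NC range.

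Counts depended on single libraries here. On day 5 the count was 2 without replicate 1 or without replicate 2 of day 5 and 3 without replicate 2 or 3 of NC ZT21, on day 3 it was 3 without replicate 2 or 3 of NC ZT21, and on day 7 it lay between 0, without replicate 3 of LPS day 7 or replicate 2 or 3 of NC, and 6, without replicate 2 of LPS day 7. Kupffer and macrophage genes moved with day 3: 13 of 16 rose, their sum being 788, 958 and 915 CPM on day 3 against 339, 224 and 243 CPM in NC livers, and none was at 0. Neutrophil genes rose in 10 of 11 tested on day 3, with sums of 27.0, 29.8 and 34.6 CPM against 2.89, 1.87 and 2.54 CPM in NC livers, and in 9 of 11 on day 5. Lymphocyte genes rose in 11 of 17 on day 3, with sums of 56.3, 70.8 and 71.0 CPM against 13.2, 15.1 and 14.7 CPM in NC livers, and in 5 of 17 on day 5. Endothelial genes rose in 3 of 11 on day 3. The part of these cells in the results was not tested.

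**Figure D5:**
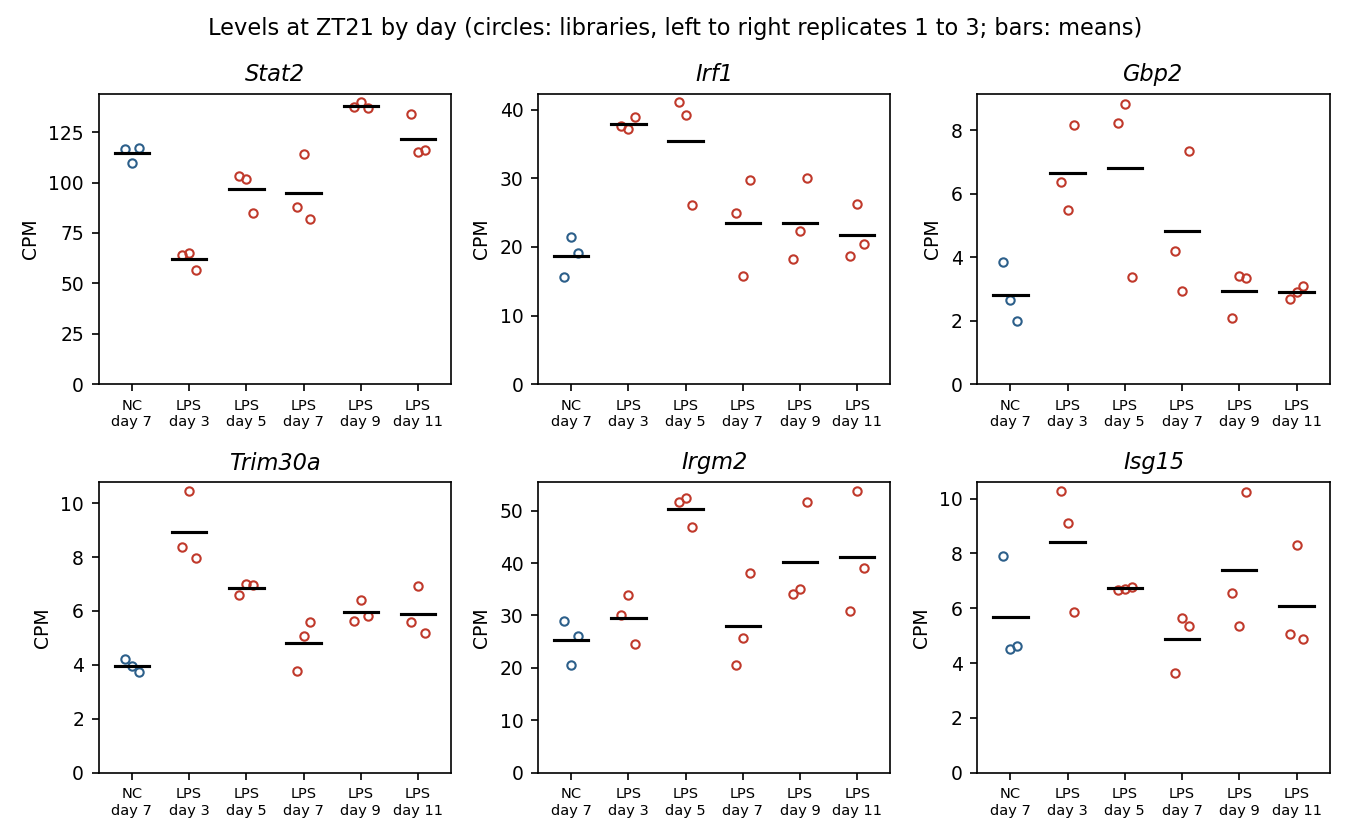
CPM (y axis) of 6 members at ZT21 in NC livers of day 7 and LPS livers of days 3, 5, 7, 9 and 11 (x axis), with circles for libraries and bars for means of 3. The 3 day-3 libraries lie below all NC libraries for Stat2 and above them for Irf1, Gbp2 and Trim30a.

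The LPS livers of days 3 and 5 were also set against NC livers of the time that the clock genes of 2 of the 3 libraries lay nearest to, ZT5 for day 3 and ZT1 for day 5. The third library of day 3 lay nearest to NC ZT9 and that of day 5 to NC ZT5. The match of day 3 was loose: replicates 1 and 2 lay 0.90 and 0.98 from NC ZT5 (root mean square log2 difference over the clock genes). The NC ZT5 libraries themselves lay 0.25 to 0.36 from it. Isg15 averaged 8.40 CPM on day 3, 25.1 CPM in NC livers at ZT5 and 10.5 CPM at ZT9. Stat2 averaged 62.0, 123 and 93.8 CPM in the same order, and Usp18 averaged 6.32, 25.3 and 11.5 CPM. Oasl1 averaged 12.9, 37.9 and 13.4 CPM and Ifit1 6.17, 26.1 and 7.97 CPM, so that both were near their NC ZT9 means on day 3. No test was made against NC ZT9. On day 3 against NC ZT5, 22 of 44 members were lower and 0 higher, against 3.38% of all genes lower and 3.94% higher (7.31% in all), and the median log2 difference was -0.87. Usp18 stood at 7.32, 7.99 and 3.65 CPM on day 3, against 20.9, 27.3 and 27.8 CPM in NC livers at ZT5, a difference of -2.003 ± 0.37 (SE, adjusted p = 0.00088). Ifit1 was lower by a log2 difference of -2.08 (adjusted p = 0.023), Gbp6 by -1.90 (adjusted p = 0.0087), Igtp by -1.65 (adjusted p = 0.00018) and Cmpk2 by -1.62 (adjusted p = 0.023). Isg15 and Rtp4 both differed by -1.58 (adjusted p = 0.0038 and 0.00097), Oasl1 by -1.55 (adjusted p = 0.0078), Xaf1 by -1.52 (adjusted p = 9.47e-05), Zbp1 and Dhx58 by -1.37 (adjusted p = 0.011 and 0.0060) and Irgm2 by -1.33 (adjusted p = 0.00018).

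All 3 members of the ISG15 system, 3 of 4 regulators and both PARP genes were among the 22, with 1 of 6 OAS and 1 of 4 IFIT genes. Of the 4 members that rose on day 3 against NC ZT21, none passed against NC ZT5: Irf1 differed by 0.20, Gbp2 by 0.62, Trim30a by -0.08 and Tgtp1 by -0.68. Stat2 was lower against either NC time, by 0.99 here on the log2 scale (adjusted p = 4.52e-06), and its call was kept in 13 of 13 alternatives. In 38 of 44 members all 3 day-3 libraries lay below all 3 NC ZT5 libraries, as for 16.8% of all genes. On day 5 against NC ZT1, 2 members were lower and 0 higher, against 1.44% of all genes lower and 1.68% higher (3.12% in all): Mx2 by -1.15 and Stat2 by -0.48 (adjusted p = 0.040 and 0.018). The median of the 44 was then -0.33, and Kupffer genes rose in 10 of 16 on day 3 against NC ZT5 and in 2 of 16 on day 5 against NC ZT1.

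The fifth question is the change after LPS ended. Days 9 and 11 as 1 set, against days 3, 5 and 7, had 3 members higher and 4 lower, where 9.76% of all genes were higher and 9.31% lower (19.1% in all). Stat2 was higher by 0.65 ± 0.07 (log2, SE, adjusted p = 0.00016), Bst2 and Irf9 were each higher by 0.33 (adjusted p = 0.034 and 0.046). Gbp2 was lower by a log2 difference of -1.05 ± 0.24 (adjusted p = 0.0091), Gbp3 by -0.50, Irf1 by -0.48 and Gbp7 by -0.46 (adjusted p = 0.019, 0.036 and 0.030). Stat2 and Gbp2 were kept in 19 of 19 alternatives. Gbp3 was kept in 17, Gbp7 in 13, Bst2 in 11, Irf1 in 7 and Irf9 in 6 of the 19. The count was 2 without replicate 2 of day 9 or replicate 1 of day 11, 3 without replicate 2 of day 5, replicate 1 of day 9 or replicate 3 of day 11, and 4 without replicate 3 of day 7. Kupffer and macrophage genes fell in 10 of 16 in this comparison, neutrophil genes in 5 of 11 and lymphocyte genes in 4 of 17, and their part was not tested. The nearest clock time differed too, being ZT21 in 4 of the 6 libraries of days 9 and 11 and ZT1 in the other 2. The libraries of days 3 and 5 lay nearest to other times, as given above. Replicates 1 and 3 of day 7 lay nearest to NC ZT17.

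Genes above the members in the pathway were taken from lists by role. Of 21 interferon genes, 4 were in the table and none passed the filter on low counts: Ifng had 14 counts in all over the 18 LPS libraries of day 7 and 14 over the 18 NC libraries, and Ifnb1 had 2 and 0. The other 17 are not analysed here. None of the 11 receptor and JAK-STAT genes passed in the day-7 average, in edgeR, with 2 at an unadjusted p under 0.05. On day 3, Ifngr1, Ifngr2 and Il10rb rose at ZT21, where 10.3% of all genes rose. Tyk2 passed the 24 h test in LPS and in NC livers. Ifngr2 passed it in NC livers, with an amplitude of 0.40 on the log2 scale and a peak at ZT 9.07. Il10rb and Ifngr1 passed there too, with peaks at ZT 7.36 and ZT 8.81. The clock genes of day 3 lay nearest to NC ZT5 and ZT9. LPS and time of day therefore cannot be told apart in the day-3 rises of these genes at ZT21.

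Of 71 further interferon-stimulated genes tested, 16 passed the 24 h test in LPS livers and 40 in NC livers, against 16.6% of all genes in LPS and 23.5% in NC livers. In the day-7 average 3 of them were higher and 7 lower, against 5.53% of all genes higher and 3.81% lower. The largest were Sp140, a nuclear body protein, at 0.50 and Oas1b at -0.47 (adjusted p = 0.0048 and 0.025). On day 3, 21 rose and 2 fell at ZT21, against 10.3% of all genes in each direction, and on day 5, 16 rose and 1 fell, against 5.91% and 5.68% of all genes. The chemokines Cxcl11 and Cxcl10, which attract T cells, rose by 1.53 and 1.48 on day 5 (adjusted p = 0.0029 and 0.046), and Gbp8 by 1.54 on day 3 and 1.46 on day 5 (adjusted p = 0.0023 and 0.0077). In NC livers Cxcl11 passed the 24 h test, with a peak at ZT 2.69, and Cxcl10 and Gbp8 did not. The clock genes of days 3 and 5 lay nearest to NC times other than ZT21. LPS and time of day therefore cannot be told apart in these rises at ZT21. Against NC ZT5, day 3 had 1 higher and 18 lower of the 71, against 3.94% of all genes higher and 3.38% lower. Of the 19 tested genes that induce interferon, Cd14, a co-receptor for LPS, was higher in the day-7 average by 1.48 (adjusted p = 0.012) and on day 3 by 2.69 (adjusted p = 0.00022). Of 6 brakes on the pathway, 0 passed in the day-7 average in edgeR, with 0 at an unadjusted p under 0.05.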

How the data were processed

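Libraries were made from male wild-type mouse liver with oligo(dT)-selected mRNA and dUTP strand marking, per the labels' protocols. The values are whole-number read counts per gene deposited by the authors for 48 libraries, not normalized. Tools listed, per the submitters' processing notes, are STAR 2.5.2b with build GRCm38, SAMtools 1.3.1 and StringTie 2.2.1, FastQC 0.11.5 and DESeq2 1.38.1, without their roles. No source used here gives the counter or its strand setting. Without a known strand setting, overlapping genes such as Parp9 and Dtx3l, and close copies such as Ifit3 and Ifit3b or Oas1a and Oas1g, are uncertain.

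Counts were tested with edgeR 4.0.16 in R 4.3.3: filterByExpr, TMM scaling, robust quasi-likelihood fits over group means and Benjamini-Hochberg adjustment over all genes tested at 0.05. The day-7 fit used 36 libraries and 16544 genes, the ZT21 fit 18 libraries and 16101 genes, the 24 h cosine fits 15861 genes, and comparisons with NC livers of another time all 48 libraries and 16858 genes. Adjusted p-values in the text are from these fits. CPM values were scaled by TMM over all 48 libraries. Alternatives were DESeq2 1.42.0, its size factors, no filter, a replicate block, other sets of libraries, libraries left out in turn and, for rhythms, limma-voom (limma 3.58.1). Scripts were tested on simulated data. Depths of 28.2 to 45.3 M counts limit precision mainly for genes at a few CPM.

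The 44 members, the gene lists and the libraries set apart were chosen with earlier results of these data known. Up to 12 members past the threshold were named per comparison by size, or the 2 with the smallest p where none passed. Irf7, Irf1, Isg15, Ifit1, Mx2, Oasl1, Usp18, Gbp2, Igtp and Stat2 were given throughout for their roles, and up to 6 other pathway genes per comparison. Genes and libraries named beyond this rule were chosen after their values were seen.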

Additional observations from a re-analysis of the deposited data

Results flagged for a closer look

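In 7 members the LPS livers of days 9 and 11, after administration ended, differed from those of days 3, 5 and 7 at ZT21 by the test of that difference itself in edgeR. The log2 differences were 0.65 for Stat2, 0.33 for Bst2, 0.33 for Irf9, -1.05 for Gbp2, -0.50 for Gbp3, -0.48 for Irf1 and -0.46 for Gbp7. Of all genes, 19.1% passed this test, so that 7 of 44 members is not above the background, and the count was 2 without replicate 2 of day 9 or without replicate 1 of day 11. The calls of Irf1 and Irf9 were kept in 7 and 6 of 19 alternatives.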

How the results depend on the processing

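Member counts past the threshold changed by over 1.5 times under these alternatives, and the cause was not tested. With DESeq2 they were 1 at ZT5 (0 in edgeR), 8 at ZT13 (3), 2 at ZT21 of day 7 (1), 4 for the interaction (0) and 10 on day 3 (6). In fits of the 6 libraries compared they were 11 at ZT5, 0 at ZT13, 1 at ZT17, 0 at ZT21 of day 7 in either fit and 10 on day 3. Without the 4 libraries set apart they were 8 in the day-7 average (13), 2 at ZT5, 5 at ZT13, 0 at ZT21, where 1 LPS library was left, and 2 for the interaction. Without the 8 libraries nearest another clock time they were 1 in the average, 0 at ZT13, where 1 LPS library was left, and 13 for the LPS rhythm (20). A lone library is assumed to vary like the other groups. With no filter they were 0 at ZT21 in the day-7 fit and 1 in the ZT21 fit (2), and with all 48 libraries 1 in the latter. Against NC ZT5, day 3 had 22, and against NC ZT1, day 5 had 2 (10). There Trim30a and Tgtp1 turned to -0.081 and -0.68 on day 3, and Xaf1 and Trim30a to -0.36 and -0.040 on day 5. Leaving out 1 library at a time gave 8 to 17 in the average, 0 to 1 at ZT1, 0 at ZT5, ZT9 and ZT17, 2 to 5 at ZT13, 0 to 3 at ZT21, 3 to 6 on day 3, 2 to 9 on day 5, 0 to 6 on day 7, 0 on days 9 and 11 and 2 to 9 for days 9 and 11 against 3, 5 and 7. Of 18 pairs of an LPS and an NC library of the same time and number, 3 had deviations correlated over 0.1. Pairs of unlike number and pairs across times or days were not compared. Whether same-numbered replicates share a batch is therefore not settled by this check. With the replicate block the counts were 12 in the average, 3 at ZT13, 2 at ZT21, 5 on day 3, 8 on day 5, 2 on day 7, 6 for the last comparison, and 20 and 31 for the LPS and NC rhythms.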
